A study of Mus musculus with 8 samples.

Results

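The genes described here make, assemble and carry the intestine's secreted antibody: Igha, Ighm and Igkc (antibody chains), Jchain, Mzb1 and Derl3 (assembly and folding), Tnfrsf17 (a plasma cell receptor) and Pigr (the epithelial transporter). They were picked by gene name, and all 8 names were found once among the 55421 genes of the deposited count table. Plasma cells of the lamina propria, the tissue under the gut epithelium, release immunoglobulin A (IgA) mainly as dimers joined by the J chain. The polymeric immunoglobulin receptor on the base of epithelial cells binds the J chain, takes the antibody across the cell and releases it into the lumen with a fragment of the receptor. Secretory IgA binds microbes and their products at the mucosal surface, and IgM is carried by the same receptor.

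Total RNA of small intestine from WT mice was sequenced in 8 libraries. The Hypoxia+Nitrate group, 4 libraries, came from mice held at 7% O2 over 7 days and given 4 mM nitrate. The Hypoxia group, 4 libraries, came from mice with the same low oxygen and no nitrate, so no library comes from mice in normal air. The sources used here give no sex, age or strain beyond WT. They do not tie libraries to animals either, so a p-value reflects only how these libraries vary, which may be technical.

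The libraries of both groups differed in more than the members. Deposited counts ran between 8662279 and 63943036 per library in the Hypoxia+Nitrate group and between 5345377 and 21835865 in the Hypoxia group. Of these, 6.90% to 64.0% in Hypoxia+Nitrate libraries and 0.423% to 1.06% in Hypoxia libraries were counts of mitochondrial protein-coding genes, and 2.33% to 21.96% and 7.06% to 75.7% fell in the ribosomal DNA locus. Smell and pheromone receptor genes, 1468 in number and expressed mainly in the nose, had a count in 31.1% to 82.3% of cases in Hypoxia+Nitrate libraries and in 99.0% to 99.6% in Hypoxia libraries. Their counts per exonic length were used as an estimate of background, which then made up 12.1% ± 10.8 of nuclear protein-coding counts in Hypoxia+Nitrate libraries and 51.0% ± 10.6 in Hypoxia libraries (SD, n = 4 each). The part of these library differences in the results below was not tested.

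The antibody chain genes lie in 2 loci of the GRCm38 assembly, with coordinates from GENCODE M21. Igha (ENSMUSG00000095079, chr12:113254830-113260236, minus strand) and Ighm (ENSMUSG00000076617, chr12:113418558-113422730, minus strand) are constant region genes of the heavy chain locus, and Igkc (ENSMUSG00000076609, chr6:70726435-70726966, plus strand) is the constant region of the kappa light chain. The secreted forms of the alpha and mu chains end in a short tail whose second-last residue, a cysteine, bonds to the J chain. That stretch is what ties both heavy chains to Jchain and Pigr, and its coding sequence is shown for both genes, the last 59 coding bases on the minus strand of chromosome 12 (Igha at chr12:113258771-113258829, Ighm at chr12:113420870-113420928), with the cysteine codon in capitals.
Igha: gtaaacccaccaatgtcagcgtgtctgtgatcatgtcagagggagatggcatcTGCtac
Ighm: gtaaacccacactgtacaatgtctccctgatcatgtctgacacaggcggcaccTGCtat
The sequences are identical at 40 of 59 bases, or 67.8%, and share the cysteine codon.

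Transcripts of the IgA heavy chain, the kappa chain, the J chain and the antibody transporter were higher in Hypoxia+Nitrate than in Hypoxia libraries. Values are CPM, counts scaled to library size with TMM factors, and calls come from edgeR's quasi-likelihood test with Benjamini-Hochberg adjustment over all 35431 genes tested, at an adjusted p of 0.05. Of the 8 members, 4 passed, all as higher and 0 as lower. Of all genes tested, 24.4% passed, 11.7% as higher and 12.7% as lower. None was lower at an unadjusted p below 0.05 either, which 14442 of all genes reached in either direction. DESeq2 also called 4 members higher and 0 lower, and limma-voom called 4 higher and 1, Tnfrsf17, lower. Of all 35431 genes, DESeq2 called 4651 higher and 10038 lower, and limma-voom 3870 and 11948. In 4 members every Hypoxia+Nitrate library lay above every Hypoxia library, a pattern of 12.0% of genes tested, in 1 (Derl3) every one lay below (28.8% of genes), and in 3 the groups overlapped. Over all genes tested, 40.8% had groups that did not overlap. The median log2 fold change was 2.65 over the members and -0.58 over all genes tested.

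**Figure D1:**
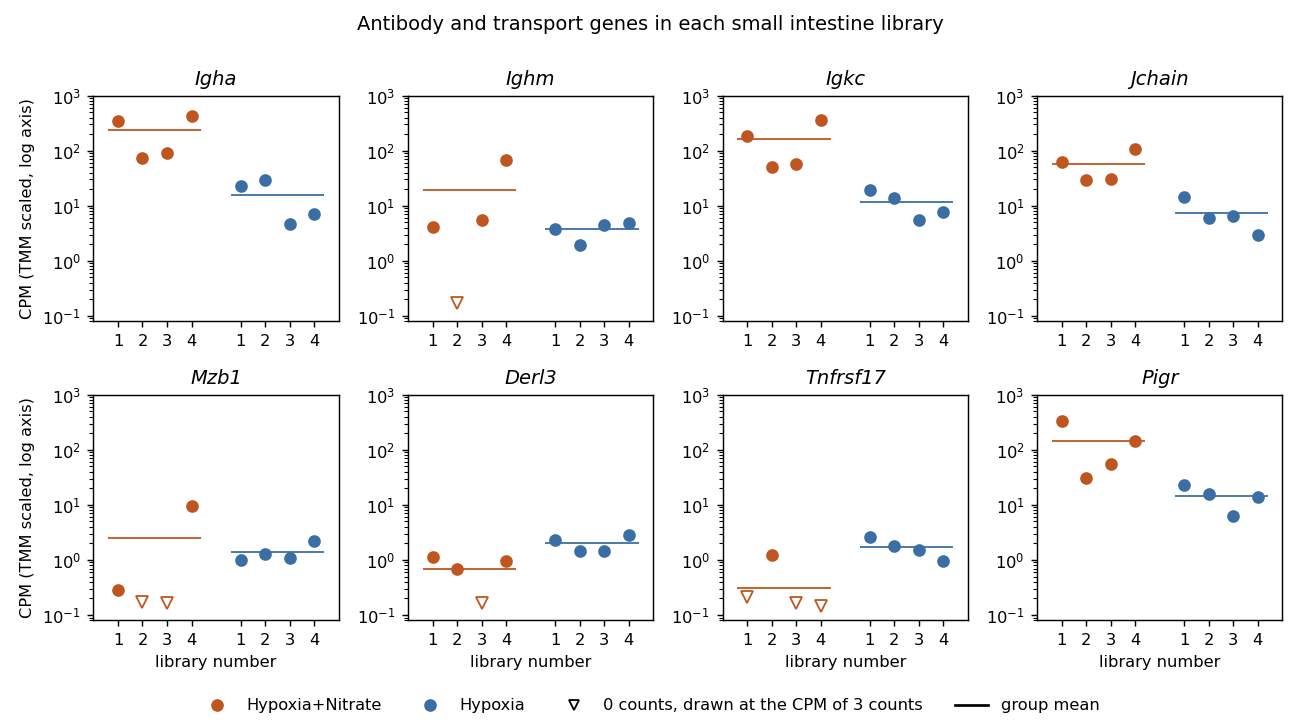
CPM (TMM scaled, log axis) of each member in libraries 1 to 4 of Hypoxia+Nitrate (left) and Hypoxia (right), with lines at the group means and open triangles for libraries with 0 counts, drawn at the CPM of 3 counts. Igha, Igkc, Jchain and Pigr lie higher in all 4 Hypoxia+Nitrate libraries, whereas Derl3 and Tnfrsf17 stay at or below 2.83 CPM throughout.

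Igha encodes the constant region of the IgA heavy chain, which sets the antibody's class. It reached 345, 74.2, 91.8 and 427 CPM in Hypoxia+Nitrate 1 to 4, against 22.4, 28.8, 4.69 and 7.05 CPM in Hypoxia 1 to 4. Hypoxia+Nitrate 1 and 4 were the highest, and the groups did not overlap. Means were 235 ± 178 CPM in Hypoxia+Nitrate and 15.7 ± 11.7 CPM in Hypoxia libraries (SD, n = 4 each), and the log2 fold change was 3.90 (SE 0.870, adjusted p = 0.0120). Counted reads numbered 4860, 1305, 1686 and 8751 in Hypoxia+Nitrate 1 to 4 and 335, 396, 89 and 117 in Hypoxia 1 to 4. The call was lost without Hypoxia 1 (log2 fold change 4.11, adjusted p = 0.0518). In these bulk samples, more cells of a type and more RNA per cell cannot be told apart.

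Ighm encodes the IgM heavy chain, made by resting B cells and by early plasma cells. Its level was 4.05, 0, 5.55 and 67.6 CPM in Hypoxia+Nitrate 1 to 4, against 3.74, 1.96, 4.43 and 4.94 CPM in Hypoxia 1 to 4. A single library, Hypoxia+Nitrate 4, stood apart, and the groups overlapped. The log2 fold change of 2.35 (SE 1.31) did not pass (adjusted p = 0.193). It was -0.23 without Hypoxia+Nitrate 4 (adjusted p = 0.894), and without Hypoxia+Nitrate 2, which held 0 counts, it was 2.82 (adjusted p = 0.0209).

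Igkc, the kappa constant region, is used by most mouse antibodies of every class. Its values were 183, 49.5, 56.2 and 362 CPM in Hypoxia+Nitrate 1 to 4, against 19.2, 14.1, 5.48 and 7.83 CPM in Hypoxia 1 to 4. The order of the Hypoxia+Nitrate libraries was that of Igha, and the groups did not overlap. The log2 fold change was 3.80 (SE 0.797, adjusted p = 0.00997), and the gene passed with each library left out in turn. Per kilobase of exon it was the most abundant member, at a mean of 306 CPM per kb in Hypoxia+Nitrate and 21.9 in Hypoxia libraries. Igha came next, at 213 ± 162 and 14.3 ± 10.7 CPM per kb of its secreted transcript (SD, n = 4 each), or 87.9 and 5.89 over all of its exons, the membrane exon included. Igkc and Igha did not differ beyond this spread. In order of their Hypoxia+Nitrate means, the others followed, with 35.5 CPM per kb in Hypoxia+Nitrate and 3.65 in Hypoxia libraries for Pigr and, for the same groups, 22.7 and 2.96 for Jchain, 12.9 and 2.52 for Ighm (secreted transcript), 2.06 and 1.15 for Mzb1, 0.384 and 2.12 for Tnfrsf17, and 0.351 and 1.01 for Derl3. Neighbours from Pigr to Ighm lay within each other's spread in the Hypoxia+Nitrate group.

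Jchain (ENSMUSG00000067149, chr5:88519809-88527891, minus strand) encodes the joining chain that polymeric IgA and IgM need for transport. Hypoxia+Nitrate 1 to 4 held 62.9, 28.8, 30.6 and 107 CPM, against 14.2, 6.11, 6.64 and 2.89 CPM in Hypoxia 1 to 4. Hypoxia 1 was the highest of its group and still lay below every Hypoxia+Nitrate library on this scale. By library size alone the groups overlapped, since Hypoxia+Nitrate 1 held 13.8 CPM and Hypoxia 3 held 23.6 CPM. The log2 fold change was 2.94 (SE 0.637, adjusted p = 0.0110), and the call held with each library left out.

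Pigr (ENSMUSG00000026417, chr1:130826684-130852249, plus strand) is the only member made by epithelial cells rather than by plasma cells. It was measured at 337, 31.4, 55.5 and 147 CPM in Hypoxia+Nitrate 1 to 4, against 23.4, 15.5, 6.17 and 13.7 CPM in Hypoxia 1 to 4. The nearest libraries, Hypoxia+Nitrate 2 and Hypoxia 1, were 31.4 and 23.4 CPM, and the groups did not overlap. Its log2 fold change was 3.28 (SE 0.802, adjusted p = 0.0164). The call was lost without Hypoxia 1 (3.59, adjusted p = 0.0543), without Hypoxia 3 (2.90, adjusted p = 0.0560) and without Hypoxia 4 (3.41, adjusted p = 0.0557). Epithelial markers moved with it: Epcam, Krt8, Krt18, Cdh1, Vil1 and Cdx1 summed to between 291 and 6907 CPM in Hypoxia+Nitrate and between 35.6 and 173 CPM in Hypoxia libraries, and none was at 0 in any library. All 6 passed as higher, where 11.7% of all genes did, with a median log2 fold change of 4.45. Their part in the Pigr difference was not tested.

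The remaining members, which mark plasma cells more narrowly, had few counts, and none passed the test. Mzb1 (ENSMUSG00000024353, chr18:35647267-35649367, minus strand) encodes a chaperone of the endoplasmic reticulum that helps immunoglobulin assembly. It had 4, 0, 0 and 199 counts in Hypoxia+Nitrate 1 to 4, against 15, 18, 21 and 36 counts in Hypoxia 1 to 4. That is 0.284, 0, 0 and 9.71 CPM, against 1.00, 1.31, 1.11 and 2.17 CPM. Hypoxia+Nitrate 4 was the highest of all libraries and the other 3 of its group were the lowest, and the log2 fold change of 0.84 (SE 1.58, adjusted p = 0.702) rests on that library, without which the gene had too few counts to be tested. Only 42.8% of its exonic bases are free of other genes, because the protein-coding gene Gm50318 overlaps it, and the assignment of such reads is not stated in the labels.

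Derl3 (ENSMUSG00000009092, chr10:75893413-75895941, plus strand) encodes a protein that helps return misfolded proteins from the endoplasmic reticulum for destruction. Hypoxia+Nitrate 1 to 4 held 16, 12, 0 and 20 counts, against 34, 20, 28 and 47 in Hypoxia 1 to 4. In CPM these were 1.14, 0.682, 0 and 0.976, against 2.27, 1.45, 1.48 and 2.83. Every Hypoxia+Nitrate library lay below every Hypoxia library, and the log2 fold change was -1.52 (SE 1.06, adjusted p = 0.292).

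Tnfrsf17 (ENSMUSG00000022496, chr16:11313812-11320074, plus strand) encodes BCMA, a survival receptor of plasma cells. It was counted 0, 22, 0 and 0 times in Hypoxia+Nitrate 1 to 4, against 39, 25, 29 and 16 times in Hypoxia 1 to 4. Only Hypoxia+Nitrate 2, at 1.25 CPM, held any count in its group, and it lay inside the Hypoxia range of 0.964 to 2.60 CPM. Where a library had 0 counts, a level of up to 0.146 to 0.213 CPM (3 counts in each of these 3 libraries) remains possible by counting error alone. The log2 fold change was -2.44 (SE 1.504, adjusted p = 0.236). The gene passed as lower without Hypoxia+Nitrate 2 (adjusted p = 0.00188), where the fitted fold is against a group at 0 and is no measure of size.

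Counts were also set against the background expected from the receptor genes, which separated the members in the Hypoxia+Nitrate group more than in the Hypoxia group. For Igha the count was 616, 38.6, 53.5 and 690 times the expected background in Hypoxia+Nitrate 1 to 4, against 6.93, 12.4, 1.61 and 2.57 times in Hypoxia 1 to 4. Igkc stood at 129 to 2936 times in Hypoxia+Nitrate and 9.44 to 30.4 times in Hypoxia libraries, and Jchain at 15.9 to 183 and 1.12 to 4.65 times. Pigr stood at 10.8 to 398 and 1.40 to 4.80 times. The groups did not overlap in these 4 genes, but the lowest Hypoxia libraries of Igha, Jchain and Pigr lay near background (48 counts of Jchain in Hypoxia 4, where 42.9 were expected). Derl3 was at 0 to 2.71 times background in Hypoxia+Nitrate and 0.679 to 1.38 times in Hypoxia libraries, and Tnfrsf17 at 0 to 2.13 and 1.15 to 2.64 times. Derl3 and Tnfrsf17 thus lay near background in Hypoxia libraries and near or below it in Hypoxia+Nitrate libraries. A difference in them was not detectable apart from background at this depth. The estimate did not hold for every gene. Derl3 had 0 counts in Hypoxia+Nitrate 3 where 23.5 were expected, and Ighm 0 in Hypoxia+Nitrate 2 where 23.9 were expected. Multiples of background and subtracted values are therefore rough for single genes. Mzb1 was at 1.59 to 4.06 times background in Hypoxia libraries and at 80.5 times in Hypoxia+Nitrate 4.

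**Figure D2:**
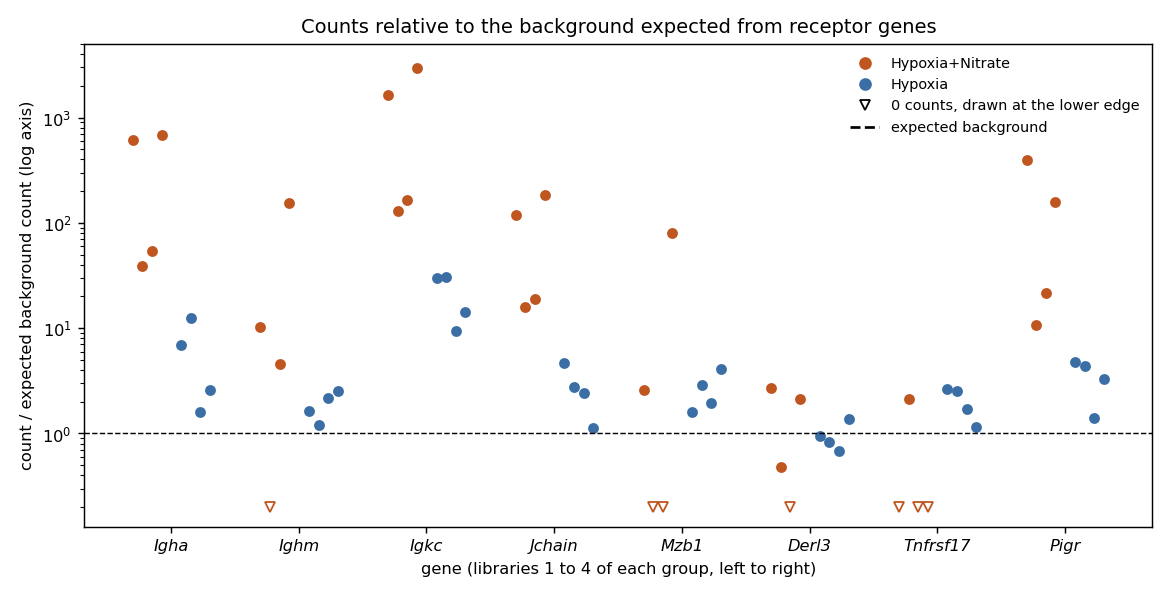
Count of each member divided by the background count expected from the receptor genes (log axis; dashed line, 1), for libraries 1 to 4 of Hypoxia+Nitrate and then Hypoxia; open triangles are 0 counts. Igha, Igkc, Jchain and Pigr do not overlap between the groups, and Derl3 and Tnfrsf17 scatter around the line or are at 0 counts.

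The scale of the levels also mattered. On a CPM scale set to nuclear protein-coding counts alone (nuclear CPM), Igha was at 511, 261, 305 and 551 in Hypoxia+Nitrate 1 to 4, against 128, 141, 25.5 and 34.9 in Hypoxia 1 to 4. Igkc and Jchain did not overlap on this scale either, but Pigr did, at 110 in Hypoxia+Nitrate 2 and 134 in Hypoxia 1. Background was then subtracted from each gene and also from the nuclear protein-coding total used for scaling. The smaller total raises values most where the background share was highest, at 63.7% in Hypoxia 1. Igha was then at 526, 331, 372 and 565, against 303, 212, 21.2 and 40.0 nuclear CPM, and the groups still did not overlap. On that subtracted scale Igkc overlapped, at 278, 225, 231 and 480 nuclear CPM in Hypoxia+Nitrate 1 to 4, against 294, 109, 58.5 and 67.7 in Hypoxia 1 to 4. Jchain overlapped too, at 95.05, 123, 120 and 141 nuclear CPM, against 176, 31.3, 46.5 and 2.83. Hypoxia 1 was the library that reached into the Hypoxia+Nitrate range for both genes. Pigr, at 512, 130, 218 and 194 nuclear CPM in Hypoxia+Nitrate 1 to 4, overlapped with 293, 95.9, 21.2 and 88.6 in Hypoxia 1 to 4.

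In a limma-voom fit after subtraction, only Igha of the members passed (log2 fold change 3.14, adjusted p = 0.0399), and all-gene calls numbered 2024. Igkc (2.19, adjusted p = 0.0626), Jchain (2.80, adjusted p = 0.0906) and Pigr (2.23, adjusted p = 0.118) were positive and did not pass. Scaling by library size alone also left Igha as the sole call, at 3.10 (adjusted p = 0.0492). That scaling moved the median of all genes to -1.07, against -0.58 with TMM. Relative to that median, Igha was 4.17 higher by library size and 4.48 higher by TMM, and Pigr 3.07 and 3.86 higher. With TMM, calls over all genes split into 4163 higher and 4490 lower, against 243 and 1557 by library size, 3237 and 6012 by DESeq2's size factor method, and 2844 and 5425 by the upper quartile.

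**Figure D3:**
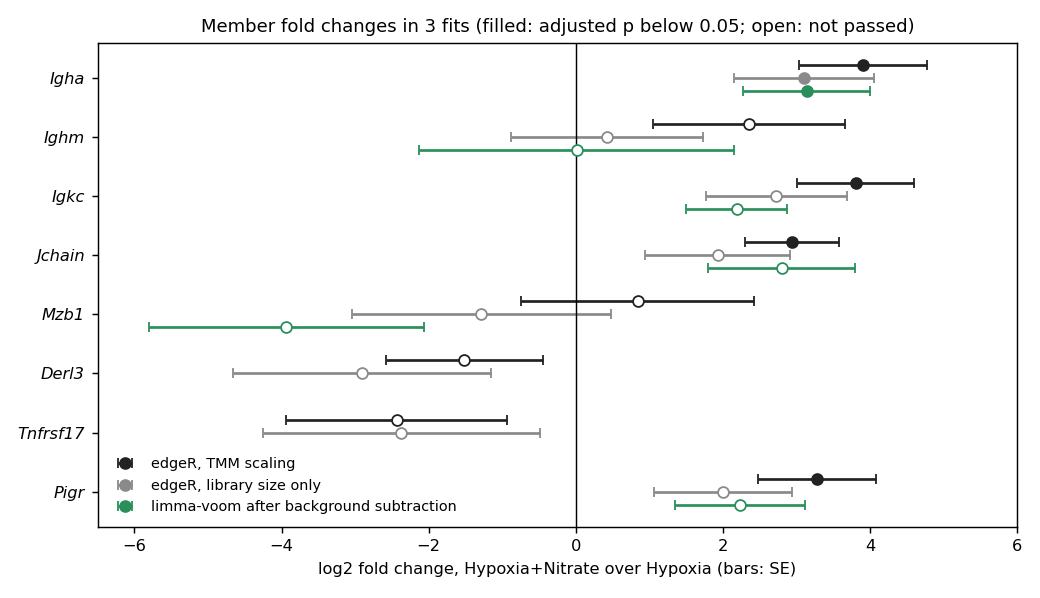
Log2 fold change of Hypoxia+Nitrate over Hypoxia (bars, SE) for each member by edgeR with TMM, edgeR with library size alone, and limma-voom after background subtraction; filled points passed an adjusted p of 0.05. Igha passed in all 3 fits, at 3.90, 3.10 and 3.14, and Derl3 and Tnfrsf17 had no value after subtraction.

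Ratios inside a library do not depend on the scaling, and 6 were compared. Igha made up 98.7%, 95.5%, 91.0% and 76.1% of heavy chain constant region counts (Igha, Ighm, Ighd, Ighe and 4 Ighg genes) in Hypoxia+Nitrate 1 to 4, against 47.4%, 58.5%, 13.6% and 19.3% in Hypoxia 1 to 4. The 95% Wilson interval of the lowest Hypoxia+Nitrate value was 75.3% to 76.8% and that of the highest Hypoxia value 54.7% to 62.1%, for counting error only. Means were 90.3% ± 10.01 in Hypoxia+Nitrate and 34.7% ± 21.7 in Hypoxia libraries (SD, n = 4 each), a difference of 55.6 percentage points with groups that did not overlap. The 2-sided exact permutation p was 0.0286, the smallest that 4 against 4 allows, and 0.171 after adjustment over the 6 ratios, so it did not pass. A single ratio at that smallest p cannot pass this adjustment, however far apart the groups are. After background subtraction the shares were 98.9%, 100%, 95.4% and 76.4% in Hypoxia+Nitrate 1 to 4, against 72.3%, 77.2%, 11.3% and 22.3% in Hypoxia 1 to 4. The difference was then 46.9 points (exact permutation p = 0.0571, adjusted p = 0.300), and Hypoxia 2 exceeded Hypoxia+Nitrate 4.

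**Figure D4:**
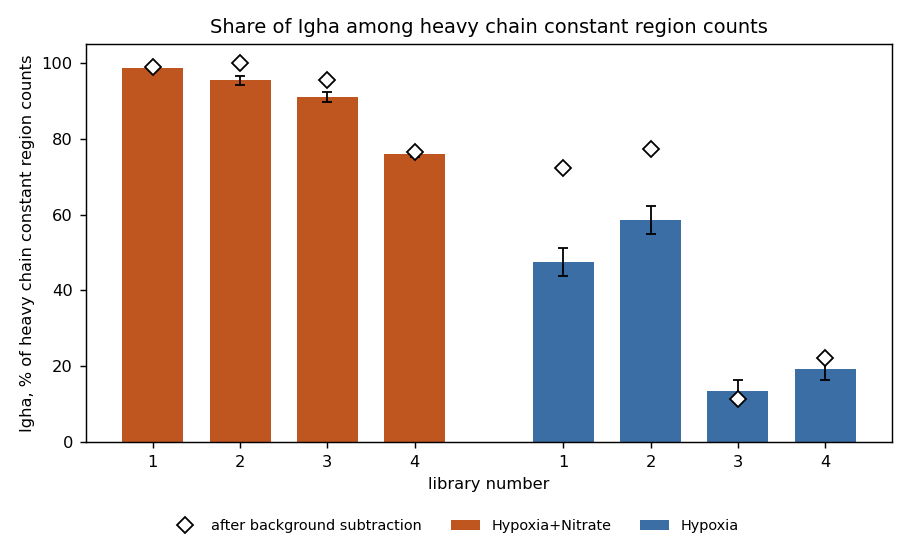
Percent of heavy chain constant region counts that were Igha in libraries 1 to 4 of Hypoxia+Nitrate and Hypoxia (bars; error bars, 95% Wilson intervals of the counts), with diamonds after background subtraction. As counted, the lowest Hypoxia+Nitrate library is at 76.1% and the highest Hypoxia library at 58.5%; the diamonds overlap.

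None of the other 5 ratios passed. On the log2 scale Jchain to Igha averaged -1.85 ± 0.482 in Hypoxia+Nitrate and -0.92 ± 1.14 in Hypoxia libraries (SD, n = 4 each; exact permutation p = 0.171, adjusted p = 0.257). Igkc to Igha averaged -0.61 ± 0.285 and -0.22 ± 0.574 (exact permutation p = 0.257, adjusted p = 0.309). Pigr to the summed epithelial markers averaged -3.90 ± 1.30 in Hypoxia+Nitrate and -2.25 ± 1.02 in Hypoxia libraries (exact permutation p = 0.114, adjusted p = 0.257), and the 7 plasma cell members to the same markers -2.004 ± 1.21 and -0.64 ± 0.723 (exact permutation p = 0.143, adjusted p = 0.257). Jchain, Mzb1, Derl3 and Tnfrsf17 together, set against Pigr, averaged -0.90 ± 1.05 and -0.15 ± 0.653 (exact permutation p = 0.314, adjusted p = 0.314).

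Genes around this pathway were read from lists of 82 genes in all. Of 16 plasma cell identity and secretion genes, 6 passed as higher and 0 as lower (DESeq2, 6 and 1; limma-voom, 4 and 3; unadjusted, 7 and 1), where 11.7% of all genes passed as higher. Shares of all genes given beside the lists are those of edgeR with TMM at the adjusted p. Of 35431 genes, DESeq2 called 4651 higher and 10038 lower, and limma-voom 3870 and 11948. The list's median log2 fold change was 1.19 with TMM and -0.23 by library size, where that of all genes was -0.58 and -1.07. Those leading by p were Edem1 (1.86, SE 0.437, adjusted p = 0.0144), Herpud1 (2.34, SE 0.588, adjusted p = 0.0182) and Ssr4 (2.91, SE 0.758, adjusted p = 0.0205). These act in protein entry to, or disposal from, the endoplasmic reticulum, and epithelial cells express them too. Among factors tied to plasma cell identity, Xbp1 (2.17, adjusted p = 0.0398) and Ell2 (2.44, adjusted p = 0.0308) passed as higher. Both overlapped between the groups. Xbp1 was at 6.42 CPM in Hypoxia+Nitrate 3 and 10.3 in Hypoxia 2, and Ell2 at 7.40 in Hypoxia+Nitrate 3 and 9.55 in Hypoxia 1. Prdm1, Irf4 and Sdc1 had log2 fold changes of 0.16, -2.28 and 1.05 and did not pass (adjusted p = 0.775, 0.111 and 0.242). Slamf7 and Fkbp11, also in the list, had -2.33 and -2.28 and did not pass (adjusted p = 0.2005 and 0.1625). The genes from Xbp1 to Fkbp11 were named after their values were seen. The list summed to 601, 186, 203 and 516 CPM in Hypoxia+Nitrate 1 to 4, against 152, 155, 124 and 140 CPM in Hypoxia 1 to 4.

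Genes of antibody transport and Pigr regulation gave 2 higher and 0 lower of 9 (DESeq2, 3 and 1; limma-voom, 1 and 2; unadjusted, 5 and 1), where 11.7% of all genes passed as higher. Their median was 1.41 with TMM and -0.07 by library size. Fcgrt, the neonatal Fc receptor that carries IgG, had a log2 fold change of 2.13 (SE 0.533, adjusted p = 0.0178). Irf1, an interferon-induced factor known to act on the human PIGR gene, had 3.16 (SE 0.859, adjusted p = 0.0242). Myd88, the adaptor of microbial sensing through Toll-like receptors, had 1.92 and did not pass (SE 0.679, adjusted p = 0.0611).

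Of the 15 genes of IgA induction and homing, 14 were tested, 2 were higher and 0 lower (DESeq2, 2 and 2; limma-voom, 1 and 1; unadjusted, 2 and 1), a share near the 11.7% of all genes that passed as higher. The median was -0.38. Aldh1a2, which makes retinoic acid, had 1.72 (SE 0.439, adjusted p = 0.0192), and Ccl25, the small intestinal chemokine for plasma cells and T cells, 2.65 (SE 0.812, adjusted p = 0.0370). Ccr9, the receptor of Ccl25, had -1.20 and did not pass (SE 0.495, adjusted p = 0.0953).

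None of the 9 other immunoglobulin constant region genes passed (DESeq2, 0 higher and 1 lower; limma-voom, 0 and 3; unadjusted, 0 and 1), with a median of -0.22. They summed to 9.02, 4.32, 5.77 and 90.1 CPM in Hypoxia+Nitrate 1 to 4, against 27.2, 22.04, 30.6 and 32.5 CPM in Hypoxia 1 to 4. In Hypoxia+Nitrate 1 to 4, 6, 3, 2 and 1 of the 9 were at 0, and in Hypoxia libraries none was. The 3 leading genes by p were Ighe (-3.46, adjusted p = 0.107), Ighg2c (-1.84, adjusted p = 0.301) and Ighg3 (-1.48, adjusted p = 0.427). Among 10 B cell genes, 0 passed as higher and 1 as lower (DESeq2, 1 and 3; limma-voom, 0 and 3; unadjusted, 1 and 3), with a median of -0.86, where 12.7% of all genes passed as lower. Pax5, the B cell identity factor that plasma cells switch off, fell by 3.43 on the log2 scale (SE 0.878, adjusted p = 0.0194), whereas Cd79a, a part of the B cell receptor, had 2.97 (SE 1.07, adjusted p = 0.0650) and Cr2, a complement receptor, -2.36 (SE 0.894, adjusted p = 0.0754). Summed B cell genes reached 3.62, 19.4, 29.4 and 151 CPM in Hypoxia+Nitrate 1 to 4, against 53.8, 56.7, 57.5 and 60.0 CPM in Hypoxia 1 to 4. In Hypoxia libraries that sum was 0.964 to 1.41 times the expected background. Pax5 was near background too, at 0.388 times in Hypoxia+Nitrate and 1.64 times in Hypoxia libraries. In the limma-voom fit after subtraction, Pax5 still passed as lower (-7.55, SE 1.25, adjusted p = 0.00259). Its Hypoxia+Nitrate counts were together below the expected background, so that fold is no measure of size. The part of background in the Pax5 difference was not tested.

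Of the other tissue compartments, smooth muscle was higher throughout. All 5 smooth muscle genes passed as higher, with a median of 2.49, where 11.7% of all genes passed as higher and 12.7% as lower. Those with the lowest p were Cnn1 (2.40), Myh11 (2.23) and Tagln (2.87). T cell genes gave 1 higher and 1 lower of 6 (Cd3e 1.44, Cd247 -3.47), and by DESeq2, by limma-voom and unadjusted 2 higher and 1 lower. Macrophage genes gave 1 higher and 0 lower of 6 (C1qa 2.76), with 1 and 0 by DESeq2, 0 and 0 by limma-voom, and 1 and 0 unadjusted. The edgeR counts of T cell and macrophage genes are near the all-gene shares. After background subtraction, by limma-voom, 0 of 6 epithelial and 0 of 5 smooth muscle genes passed, with medians of 3.13 and 1.67. Of 15033 genes tested in that fit, 636 passed as higher and 1388 as lower, with a median of 0.06. The median was 1.11 over the 14 plasma cell identity and secretion genes tested, of which Ell2 alone passed, as higher. Ell2 lay at 8.76 times the expected background in Hypoxia+Nitrate and 0.713 times in Hypoxia libraries. Its fold after subtraction (7.38) is therefore no measure of size. In the other lists, Cd3g passed as higher (5.24, adjusted p = 0.0420), and Ighe (-7.08, adjusted p = 0.000280) and Pax5 as lower. Cd3g lay at 10.5 times the expected background in Hypoxia+Nitrate and 1.15 times, near background, in Hypoxia libraries. Ighe lay at 0.392 times the expected background in Hypoxia+Nitrate and 1.89 times in Hypoxia libraries.

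**Figure D5:**
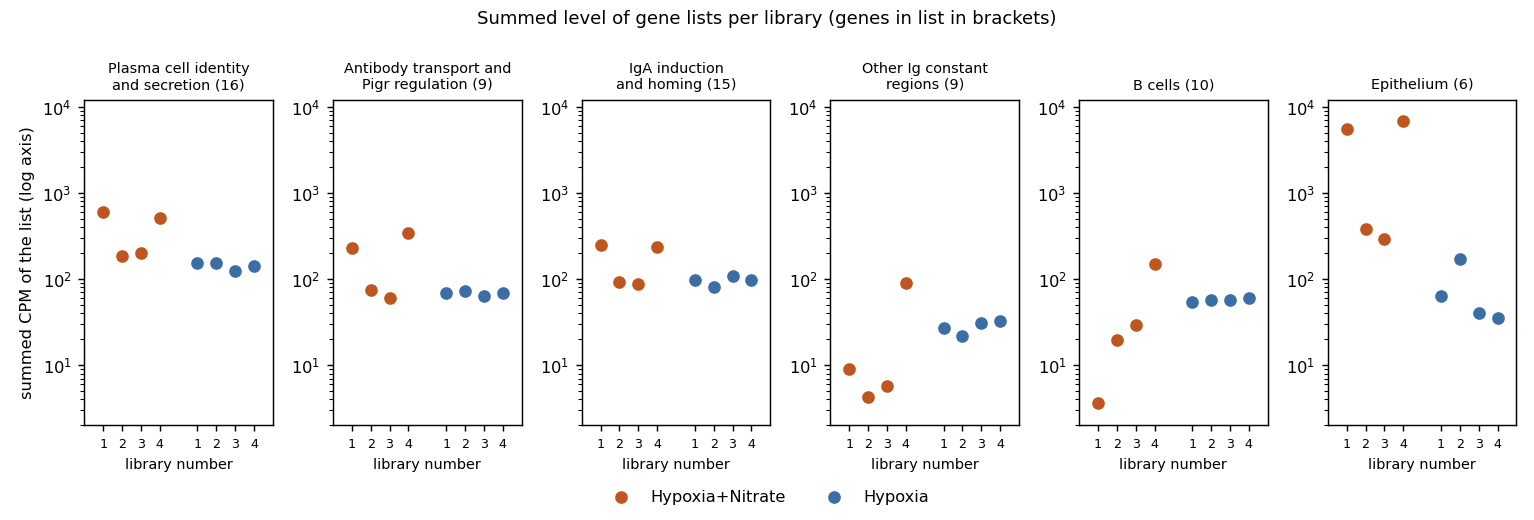
Summed CPM (log axis) of 6 gene lists in libraries 1 to 4 of Hypoxia+Nitrate (left) and Hypoxia (right), list sizes in brackets. Epithelial genes are higher in all Hypoxia+Nitrate libraries, at 291 to 6907 against 35.6 to 173 CPM, whereas summed B cell genes exceed the Hypoxia range only in Hypoxia+Nitrate 4.

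Across the 8 libraries, log2 CPM of Igha correlated with that of Igkc at Pearson r = 0.985 and of Jchain at 0.936, and with Pigr, which other cells make, at 0.945. Igha against Tnfrsf17 gave -0.785, and Ighm against Mzb1 0.719. These describe 8 points in 2 groups that share library depth and scaling. The genes outside the members most like Igha, among 14958 protein-coding genes, were Rpl5, Rpl23 and Btf3 (each r = 0.997), which encode ribosomal proteins and a translation factor. For Pigr they were Errfi1, Dusp1 and Gde1 (r = 0.994, 0.988 and 0.986). Likeness of this degree was common: 2134 genes reached r = 0.9 with Igha and 1919 with Pigr.

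Promoters of 4 of the 8 members matched the RefSeq table (GRCm38.p6), and 3 are shown because Pigr and Jchain rose together and Derl3 did not: 250 bases before the start, with the motif named before each sequence in capitals. Both strands were searched for the E-box CACGTG, the CCAAT box CCAAT, the ER stress response element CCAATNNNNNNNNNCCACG (which holds a CCAAT box), the interferon regulatory factor (IRF) core AANNGAAA and the octamer ATGCAAAT.
Pigr, chr1:130826434-130826683, plus strand, E-box: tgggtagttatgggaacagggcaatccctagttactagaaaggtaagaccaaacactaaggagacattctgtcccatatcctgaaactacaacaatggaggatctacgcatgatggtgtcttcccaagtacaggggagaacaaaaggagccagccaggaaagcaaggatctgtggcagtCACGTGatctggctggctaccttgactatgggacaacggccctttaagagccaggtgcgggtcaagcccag
Jchain, chr5:88527898-88528147, minus strand, IRF core on the other strand: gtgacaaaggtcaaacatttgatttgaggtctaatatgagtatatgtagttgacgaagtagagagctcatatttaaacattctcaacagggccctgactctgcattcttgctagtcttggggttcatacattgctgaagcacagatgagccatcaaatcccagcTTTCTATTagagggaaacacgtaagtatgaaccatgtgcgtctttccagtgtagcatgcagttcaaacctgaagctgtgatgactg
Derl3, chr10:75893148-75893397, plus strand, E-box and, on the other strand, ER stress response element: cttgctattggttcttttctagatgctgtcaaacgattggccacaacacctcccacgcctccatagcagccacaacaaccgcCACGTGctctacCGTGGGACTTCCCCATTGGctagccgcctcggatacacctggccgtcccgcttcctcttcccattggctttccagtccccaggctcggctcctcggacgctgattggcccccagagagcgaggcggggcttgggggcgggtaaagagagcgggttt
The Pigr E-box ends 65 bases before the start, and CACGTG occurs in 6.02% of 32851 promoter windows. Jchain and Tnfrsf17 each hold 1 IRF core, which occurs in 21.3% of windows and ends 78 and 93 bases before the start. Derl3 holds the ER stress response element, found in 0.113% of windows, and 5 CCAAT boxes, a motif in 33.8% of windows; 1 of the boxes is inside that element, and the other 4 are printed in lower case. The octamer, in 1.60% of windows, was in none of the 4. Such matches describe letters in a window and do not show binding.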

How the data were processed

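For 8 libraries, the authors deposited raw gene counts in whole numbers, in a joint table and in 8 per-sample tables with identical values. HISAT, featureCounts 1.5.0-p3, DESeq 1.8.3 and GRCm38 are named in the submitters' processing notes; annotation, strand setting and handling of shared reads were not given in the sources used here. Per the labels' protocols, libraries came from a stranded kit, and the RNA isolation text names islets although the tissue is small intestine. Of 55421 gene IDs, 55240 matched GENCODE M21.

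Counts were tested in R 4.3.3 with edgeR 4.0.16 (filterByExpr, minimum count 10, total 15; TMM; quasi-likelihood test; Benjamini-Hochberg 0.05), Hypoxia+Nitrate over Hypoxia. DESeq2 1.42.0 and limma 3.58.1 served as alternatives, with other scalings, filters and left-out libraries. Expected background was the mean count per exonic kilobase of receptor genes, times 0.5 on X and Y. Ratios used counts plus 0.5 and 2-sided exact permutation tests. In simulated counts for Hypoxia+Nitrate against Hypoxia over 33095 genes, the edgeR step recovered 0, 14, 35 and 40 of 50 genes changed 4-, 16-, 64- and 256-fold, with 5 false calls. Apart from the changed genes, all simulated libraries shared the same composition and background. The real libraries did not, so the false calls do not measure error in these data. Named genes were the members, up to 3 genes of each list with the lowest p, and the 3 most like Igha and Pigr. Prdm1, Irf4, Sdc1, Xbp1, Ell2, Slamf7, Fkbp11, Ighd, Bank1, Gm50318 and the full epithelial list were named outside this rule. Members and lists were chosen with earlier results of these data known.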

Additional observations from a re-analysis of the deposited data

Results flagged for a closer look

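Over 28 groups of 4 libraries tested for a library far from the others by Dixon's criterion at the 95% level, 3 stood out, where chance gives about 1 in 20. Ighm was at 67.61 CPM in Hypoxia+Nitrate 4, with the other 3 libraries of the group between 0 and 5.55 CPM. Mzb1 was at 9.708 CPM in Hypoxia+Nitrate 4, with the others between 0 and 0.284 CPM. Tnfrsf17 was at 1.251 CPM in Hypoxia+Nitrate 2, with the others at 0 counts. With 3 libraries at 0, any single library with counts meets the criterion; this one held 22 counts, 2.13 times the expected background.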

How the results depend on the processing

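Genes called numbered 8653 in the edgeR fit with TMM, and 1800 by library size, 16708 without a filter, 14689 with DESeq2, 15818 with limma-voom, 20696 with its quality weights, 4791 with replicate number as a block, 4227 without Hypoxia 1 and 2, 2024 after background subtraction and 0 with the background share as covariate (2640 at an unadjusted p below 0.05). With one library left out they ran from 1932 (without Hypoxia 1) to 22454 (without Hypoxia+Nitrate 2). Of the members, 4 were called, and 1 by library size, 2 without Hypoxia 1 and 2, 1 after subtraction and 0 with the covariate (0 also unadjusted); leaving out one library gave 2 (without Hypoxia 1) to 6 (without Hypoxia+Nitrate 2). In the covariate fit, Igha was 1.37 (adjusted p = 0.918), Igkc 1.70, Jchain 2.66, Pigr 0.92, Ighm -2.86, Mzb1 -8.64 and Tnfrsf17 1.13. The background share ran from 2.74% to 23.2% in Hypoxia+Nitrate and from 39.0% to 63.7% in Hypoxia libraries, so the covariate and the group cannot be told apart.

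By library size, log2 fold changes were 2.72 for Igkc, 1.93 for Jchain, 1.999 for Pigr and -1.28 for Mzb1, none past the threshold. After subtraction Igkc was 2.19, Jchain 2.80, Pigr 2.23 and Mzb1 -3.93. Without Hypoxia 1 and 2, Igkc was 4.81 (adjusted p = 0.0510) and Pigr 4.04 (adjusted p = 0.0954). Ighm was -0.38 by limma-voom, -0.29 without Hypoxia+Nitrate 1 and 4, and -0.23 without Hypoxia+Nitrate 4. Mzb1 was -2.68 by limma-voom, -1.05 with quality weights and -2.89 with the replicate block. Without Hypoxia+Nitrate 1 and 4, Mzb1 was -7.53 and passed as lower (edgeR, adjusted p = 0.0165). The remaining Hypoxia+Nitrate libraries are at 0 there, so that fold is no measure of size. Tnfrsf17 passed at -4.46 by limma-voom and -5.23 with quality weights. The cause of these shifts was not tested. Leaving out one library in turn, Igha ranged from 3.44 to 4.38, Ighm from -0.23 to 2.88, Igkc from 3.05 to 4.27, Jchain from 2.46 to 3.44, Mzb1 from 0.59 to 1.46 (not tested without Hypoxia+Nitrate 4), Derl3 from -1.83 to -0.94, Tnfrsf17 from -7.84 to -1.97 and Pigr from 2.42 to 3.73. The 6 ratios kept their direction in each alternative run, and none passed; with the replicate block (smallest p 0.125) or 2 libraries left out (smallest p 0.0667) none could. The Igha share difference ran from 46.9 to 73.9 points. Same-numbered libraries of both groups deviated together with correlations of 0.05, -0.18, 0.18 and -0.05, and differently numbered ones with -0.16 to 0.17. These values show no sign of pairing by number but cannot exclude it. With the block the same 4 members were called (Igha 3.94, adjusted p = 0.0432). Mzb1 had no value under the stricter CPM filter, and Derl3 and Tnfrsf17 none after subtraction. Low counts near or below background limit Derl3 and Tnfrsf17.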

Other observations

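Summed over each list, Hypoxia+Nitrate 4 held more counts of B cell genes (3103, against 51, 342 and 541 in Hypoxia+Nitrate 1 to 3) and of the other immunoglobulin constant regions (1846, against 127, 76 and 106) than the rest of its group. The genes, named after their values were seen, did not all do so. It had 512 counts of Ighd, against 0, 0 and 9 in Hypoxia+Nitrate 1 to 3, and 1709 of Cd79a, against 17, 99 and 162. Bank1 had 66 counts there, against 11, 97 and 147, Cr2 40, against 0, 43 and 32, and Ighe 0, against 0, 20 and 0. Hypoxia libraries held 42 to 57 counts of Ighd and 27 to 99 of Cd79a. Igha still made up 76.1% of heavy chain constant region counts in that library.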
